A study of Mus musculus with 3 samples.

Results

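The let-7 and miR-98 family was followed in Müller glia (MG), the main glial cells of the retina, in 3 pooled samples measured by NanoString, which counts single miRNA molecules through bar-coded probes without amplification. The 9 members were taken by their miRBase mature identifiers, without use of any measured value: let-7a (MIMAT0000521), let-7b (MIMAT0000522), let-7c (MIMAT0000523), let-7d (MIMAT0000383), let-7e (MIMAT0000524), let-7f (MIMAT0000525), let-7g (MIMAT0000121), let-7i (MIMAT0000122) and miR-98 (MIMAT0000545). No measured value was a criterion, but earlier results of these data were known when the members were chosen. They are 9 of the 602 miRNA rows on the panel, and all 9 were measured in all 3 samples.

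A miRNA pairs through its seed, the short stretch near its 5′ end, with sites in messenger RNAs and lowers their output. The let-7 family is known for rising as cells leave the dividing, immature state, for repressing Lin28 and cell cycle genes, and for being blocked at the precursor step by Lin28 in return. In the retina it is known as a timer of progenitor competence, and in MG as a brake on the return to a progenitor-like state. Like nearly all miRNAs, its members are cut from hairpin precursors by Dicer. Lin28, Dicer1 and the target messenger RNAs were not analysed here.

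All 3 groups carried Rlbp1-CreER and a tdTomato reporter, so that tamoxifen switched on the red label in MG, and the tdTomato+ cells of adult mice were sorted and pooled. The wild type sample came from 40 retinas. The light damage (LD) sample came from 44 retinas collected 7 days after 8 h of light at 10000 lux, from mice that had also been crossed to albino Swiss Webster mice that carry RPE65450Leu, the leucine variant of the RPE65 gene. The Dicer-cKO sample came from 26 retinas of mice that in addition carried Dicerf/f, 1 month after the deletion, in which the same Cre drives both the label and the loss of Dicer. Tamoxifen was given at 75 mg/kg, on 3 days by the sample labels and on 4 days by the study's methods. The methods give an age of 2 to 3 months at tamoxifen, while the youngest postnatal day in the design text is 21. The wild type and Dicer-cKO samples had been measured earlier and were normalized anew with the LD sample. Strain and series of measurement therefore cannot be told apart from the LD condition. Each condition has 1 pooled sample, so there is no spread between replicates, no test was possible, and the 95% intervals below (exact Clopper-Pearson) cover counting error only. In bulk RNA, fewer cells of a type and less RNA per cell cannot be told apart.

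The 9 mature sequences are shown because the probes have to separate molecules that differ by as little as 1 base. They are RefSeq sequences (GRCm38.p6), written 5′ to 3′, with the seed (bases 2 to 8) in capitals.
let-7a: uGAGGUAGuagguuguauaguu
let-7b: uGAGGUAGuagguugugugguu
let-7c: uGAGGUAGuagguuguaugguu
let-7d: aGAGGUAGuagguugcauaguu
let-7e: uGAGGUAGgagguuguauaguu
let-7f: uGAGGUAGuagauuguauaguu
let-7g: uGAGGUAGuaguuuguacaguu
let-7i: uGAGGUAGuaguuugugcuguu
miR-98: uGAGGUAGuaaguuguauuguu

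All 9 are 22 bases long and share 1 seed, GAGGUAG. Counted from 1 at the 5′ end, with the base of let-7a first, let-7c differs from let-7a by A19G, let-7e by U9G and let-7f by G12A. let-7b differs by A17G and A19G, let-7d by U1A and U16C, let-7g by G12U and U18C, and miR-98 by G11A and A19U. let-7i is the farthest from let-7a, with G12U, A17G, U18C and A19U. In the mouse annotation 12 hairpins encode the 9 members, since let-7a, let-7c and let-7f each come from 2. Several hairpins lie within 60 kb of each other on the same strand: let-7a-1 with let-7f-1 and let-7d, let-7b with let-7c-2, and let-7f-2 with miR-98. How well each probe told its own target from the near-identical members was not measured here, so the counts of different members are not read as relative amounts of their molecules. A family sum or a share of it is a sum or share of probe counts, and is compared between samples only.

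The depth differed between the samples. The miRNA counts summed to 783889 normalized counts in wild type, 468576 after LD and 195642 in Dicer-cKO MG. Before scaling these were 678722, 230232 and 44258 counts, and the deposited values had been multiplied by 1.15, 2.04 and 4.42 to bring 4 housekeeping mRNAs to one geometric mean. The family held 77931, 24991 and 6908 of the counts before scaling, so its Dicer-cKO values rest on the fewest molecules.

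As a whole the family was lower in both conditions than in wild type MG, and lowest in Dicer-cKO MG. Its sum was 90006 normalized counts in wild type, 50863 after LD and 30535 in Dicer-cKO MG. After LD this was 0.565 times the wild type sum (0.557 to 0.573), and in Dicer-cKO MG 0.339 times (0.331 to 0.348). Both directions hold with the scaling to all 4 housekeeping mRNAs. The Dicer-cKO ratio was also below 1 with each of the 4 alone, from 0.262 with B2m to 0.436 with Gapdh. With Gapdh alone the LD ratio was 1.19, and with samples set to the same miRNA total the Dicer-cKO ratio was 1.36. Setting the totals equal takes out, by construction, any change that all miRNAs share, so that scaling cannot show such a change.

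**Figure D1:**
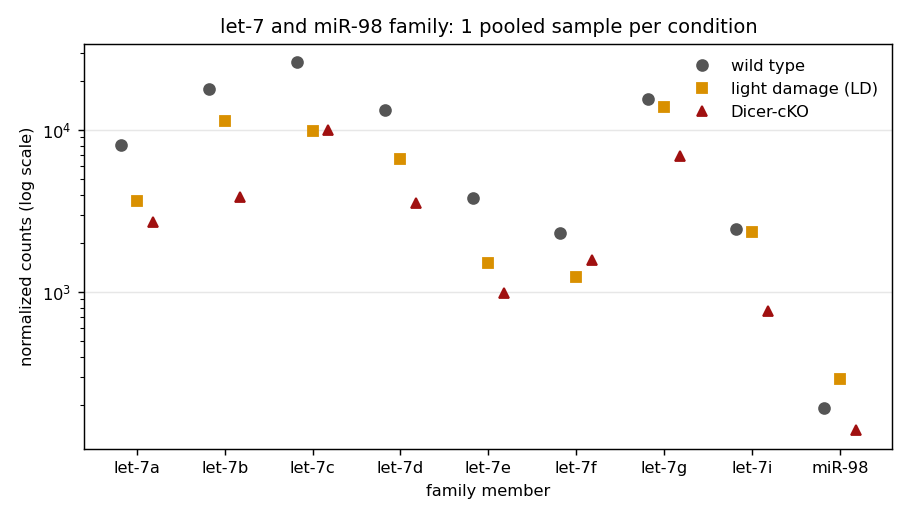
Normalized counts (log axis) of each of the 9 members in the wild type, LD and Dicer-cKO samples, 1 point per pooled sample and so without error bars. Wild type is the highest of the 3 for 8 members, and for miR-98 the LD sample is the highest at 290.

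After LD the members spread widely, from let-7c at 0.378 times wild type to miR-98 at 1.5 times. let-7c read 26178 normalized counts in wild type, 9888 after LD and 9984 in Dicer-cKO MG. Its LD ratio was 0.378 (0.366 to 0.390) and its Dicer-cKO ratio 0.381 (0.365 to 0.398), and the 2 reduced samples did not differ beyond counting error (LD over Dicer-cKO 0.990, 0.942 to 1.04). That near equality belongs to the deposited scaling: LD over Dicer-cKO for let-7c was 0.414 with the same miRNA total, 0.547 with Rpl19 alone and 1.62 with Gapdh alone. Its Dicer-cKO ratio to wild type turned to 1.53 with the same total and 1.04 by median of ratios.

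With the deposited scaling let-7a, let-7d and let-7e were also at least 2-fold lower after LD, and lower again in Dicer-cKO MG. let-7a read 8129 in wild type, 3648 after LD and 2704 in Dicer-cKO MG, ratios of 0.449 (0.426 to 0.473) and 0.333 (0.306 to 0.362). let-7e read 3790, 1521 and 984, ratios of 0.401 (0.370 to 0.434) and 0.260 (0.226 to 0.298). let-7d, whose first base differs from that of the others, read 13294, 6634 and 3557, ratios of 0.499 (0.480 to 0.519) and 0.268 (0.249 to 0.288). The LD interval of let-7d spans the 2-fold line, so its place among the members past 2-fold is within counting error. With the same miRNA total none of the 3 was 2-fold lower after LD, and LD over Dicer-cKO was 0.563 for let-7a, 0.779 for let-7d and 0.645 for let-7e. The Dicer-cKO ratios to wild type then turned to 1.33 for let-7a, 1.07 for let-7d and 1.04 for let-7e. With that total without miR-720, the highest miRNA after LD, the LD ratios turned to 1.15, 1.28 and 1.03.

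With the deposited scaling let-7b and let-7f were lower than wild type after LD by less than 2-fold, and their LD and Dicer-cKO samples stood in opposite order. let-7b read 18043 in wild type, 11425 after LD and 3875 in Dicer-cKO MG, ratios of 0.633 (0.614 to 0.653) and 0.215 (0.201 to 0.230), the lowest Dicer-cKO ratio of the family. let-7f read 2300, 1232 and 1576, ratios of 0.536 (0.488 to 0.587) and 0.685 (0.611 to 0.768). With the deposited scaling let-7f was the only member for which the LD sample lay below the Dicer-cKO sample beyond counting error (LD over Dicer-cKO 0.782, 0.683 to 0.892). With Gapdh alone this ratio was 1.28, and with the same miRNA total 7 of the 9 members lay below 1. The LD ratio to wild type turned to 1.33 for let-7b and 1.13 for let-7f with Gapdh alone, and the Dicer-cKO ratio of let-7f to 2.75 with the same total.

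With the deposited scaling let-7g and let-7i were near their wild type level after LD and at least 2-fold lower in Dicer-cKO MG. let-7g read 15643 in wild type, 13871 after LD and 6952 in Dicer-cKO MG, ratios of 0.887 (0.861 to 0.913) and 0.444 (0.422 to 0.468). let-7i read 2436, 2354 and 763, ratios of 0.966 (0.899 to 1.04) and 0.313 (0.267 to 0.367). For let-7i the LD interval includes 1, so no difference from wild type was detectable at this depth. With the same miRNA total the LD ratios were 1.48 for let-7g and 1.62 for let-7i, and the Dicer-cKO ratios 1.78 and 1.25. The LD ratios moved the other way with Rpl19 alone, to 0.518 for let-7g and 0.565 for let-7i. Before scaling they were 0.503 and 0.548.

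miR-98 was the only member higher after LD with the deposited scaling. It read 193 in wild type, 290 after LD and 140 in Dicer-cKO MG, ratios of 1.5 (1.19 to 1.89) and 0.725 (0.486 to 1.08). Before scaling these are 167, 142 and 32 counts, from samples whose miRNA counts summed to 678722, 230232 and 44258. Its LD ratio was above 1 under 6 of the 8 other scalings, from 1.27 with Actb alone to 3.86 with the same total without miR-720, and below 1 with Rpl19 alone (0.878) and before scaling (0.853). Its Dicer-cKO interval includes 1 with the deposited scaling, and the ratio was 2.91 with the same total, 1.97 by median of ratios, 0.190 before scaling and 0.304 with a further 20 counts subtracted.

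**Figure D2:**
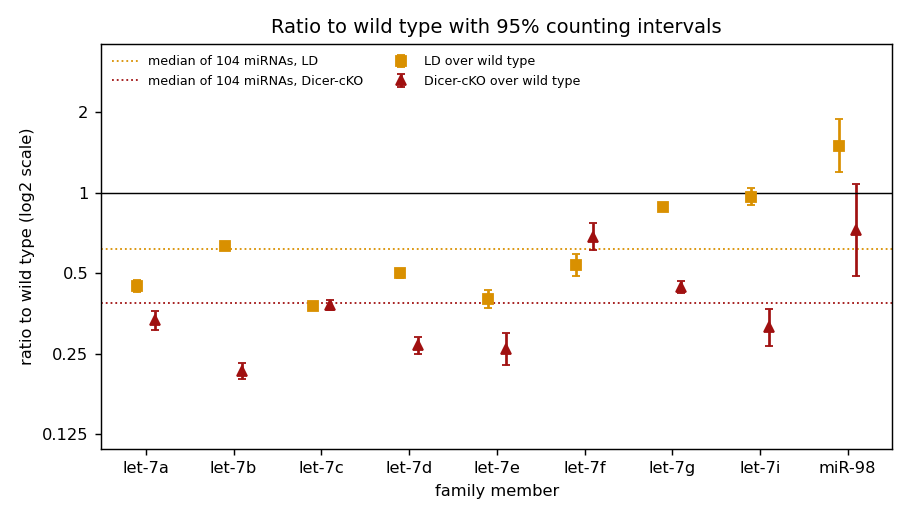
Ratio of each member to wild type (log2 axis) after LD and in Dicer-cKO MG, with bars for the 95% counting interval, and dotted lines for the median of the 104 miRNAs compared. let-7c has nearly the same ratio in both conditions (0.378 and 0.381), while let-7i parts the most, at 0.966 and 0.313.

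Counted over the family, 4 of the 9 members (let-7a, let-7c, let-7d and let-7e) were at least 2-fold lower after LD, beside 39.4% of the 104 miRNAs whose mean over the samples reached 100 normalized counts, a filter that all 9 members passed. Beyond counting error 7 members were lower, beside 58.7% of the 104. In Dicer-cKO MG 7 members were at least 2-fold lower, all but let-7f and miR-98, beside 60.6%, and 8 were lower beyond counting error, beside 69.2%. Among miRNAs with a mean of at least 1000, a level that 8 members exceed, 78.4% were at least 2-fold lower in Dicer-cKO MG. Under the same miRNA total, that total without miR-720 or the median of ratios, 0 members were 2-fold lower in either condition, beside 20.2%, 9.62% and 20.2% of the 104 after LD and 9.62%, 9.62% and 18.3% in Dicer-cKO MG, and with Gapdh alone 0 after LD, beside 13.5%. With Rpl19 alone and before scaling 6 members were 2-fold lower after LD, beside 57.7% and 58.7%. Before scaling 9 were in Dicer-cKO MG, beside 80.8%. As deposited, the 4 of 9 members past 2-fold after LD lie close to the 39.4%. The counts of 7, 7 and 8 of 9 lie above the 58.7%, 60.6% and 69.2% beside them. Against the 78.4% of miRNAs with a mean of at least 1000, however, the 7 members 2-fold lower in Dicer-cKO MG lie close. A call beyond counting error is reached more easily at high counts, and no share at that mean was computed for such calls. Whether the family stands apart from the panel was not tested. The median ratio of the members was 0.536 after LD and 0.333 in Dicer-cKO MG, beside 0.613 and 0.388 over the 104.

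Between the 2 conditions, 7 of 9 members were higher after LD than in Dicer-cKO MG with the deposited scaling, beside 72.1% of the 104. With the same miRNA total 2 of 9 were, beside 31.7%, and 5 of 9 by median of ratios or with Rpl19 alone, beside 51.0% and 45.2%. As deposited, let-7i (3.09, 2.62 to 3.63), let-7b (2.95, 2.74 to 3.17) and miR-98 (2.07, 1.38 to 3.10) were at least 2-fold higher, 3 of 9 beside 41.3% of the 104. let-7g lay just under the 2-fold line (2.0 after rounding, 1.89 to 2.11). Beyond counting error 7 members were higher, beside 55.8%. let-7d (1.87, 1.73 to 2.02), let-7e (1.55, 1.33 to 1.80) and let-7a (1.35, 1.23 to 1.48) made up the rest of the 7. The number at least 2-fold higher depended on the scaling. It was 0 with the same miRNA total, with that total without miR-720, by median of ratios and with Rpl19 alone. It was 2 with Actb alone, 5 with B2m alone, 7 with Gapdh alone and 8 before scaling.

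**Figure D3:**
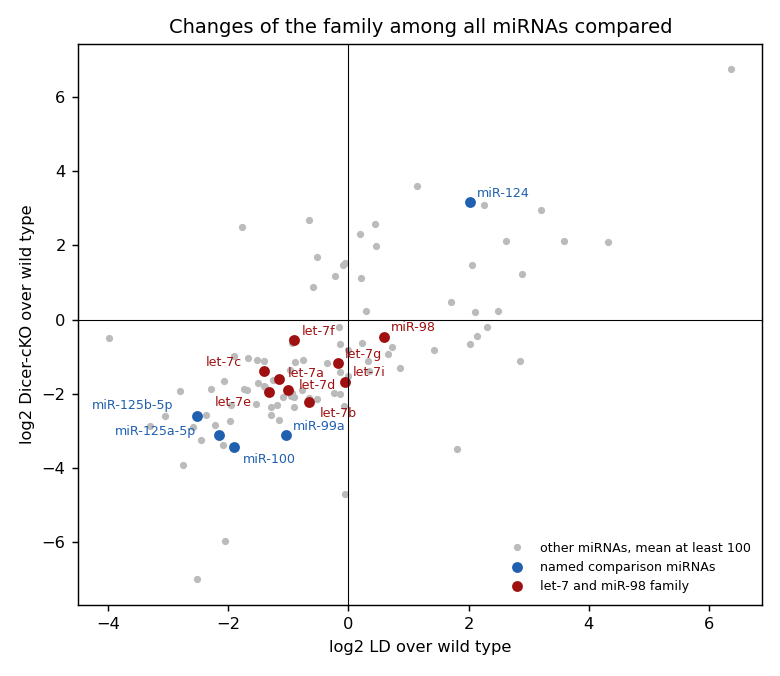
log2 ratio to wild type after LD (horizontal) against Dicer-cKO (vertical) for the 104 miRNAs compared, 1 point per miRNA, with the 9 members in red and 5 comparison miRNAs in blue. Both axes share the wild type sample. 8 members lie below 0 on both axes, among many other miRNAs, and miR-98 lies right of 0 at 0.59.

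The make-up of the family differed between the samples, and a share, taken within 1 sample, does not depend on the scaling. These are shares of probe counts, compared for 1 member between samples. let-7c made up 29.1% of the family's counts in wild type (28.8 to 29.4), 19.4% after LD (18.9 to 19.9) and 32.7% in Dicer-cKO MG (31.6 to 33.8). let-7g made up 17.4% (17.1 to 17.6), 27.3% (26.7 to 27.8) and 22.8% (21.8 to 23.8).

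The share of let-7b, 19.8% to 20.3% in wild type by its interval, went opposite ways in the 2 conditions, to 22.5% (21.9 to 23.0) after LD and 12.7% (11.9 to 13.5) in Dicer-cKO MG. let-7i was 2.71% (2.59 to 2.82) in wild type, 4.63% (4.37 to 4.90) after LD and 2.50% (2.15 to 2.90) in Dicer-cKO MG. let-7f was 2.56%, 2.42% and 5.16%, with a larger share than wild type in Dicer-cKO MG and an overlapping interval after LD. miR-98 was 0.214%, 0.570% and 0.458%. Beside wild type, the intervals were apart for 8 members after LD, 4 with a larger and 4 with a smaller share, and for 7 in Dicer-cKO MG, 4 larger and 3 smaller. Of the 4 larger, miR-98 rests on 32 unscaled counts, and with a further 20 counts subtracted its Dicer-cKO share was 0.173% beside 0.189% in wild type. In Dicer-cKO MG let-7a and let-7i had intervals that overlapped those of wild type. No like count was made over the rest of the panel, and at this depth small differences between 2 pools set counting intervals apart. The shares are parts of 1 sum, so a larger share of some members makes those of others smaller.

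**Figure D4:**
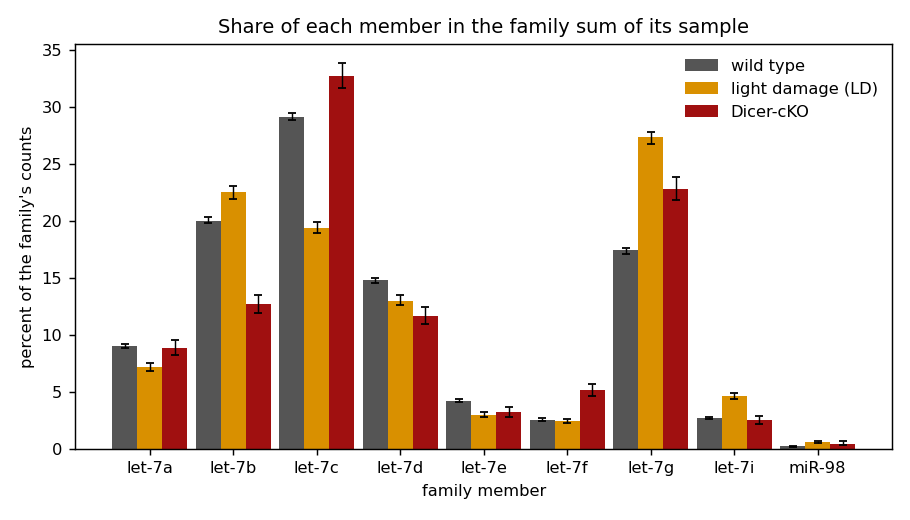
Percent of the family's counts that each member held in the wild type, LD and Dicer-cKO samples, with bars from 0 and lines for the exact 95% counting interval. let-7c is 29.1% in wild type and 19.4% after LD, let-7g 17.4% and 27.3%, and let-7b is smallest in Dicer-cKO MG at 12.7%.

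Members with nearly the same sequence did not always have like ratios. let-7a and let-7c, 1 base apart, had log2 LD ratios of -1.16 and -1.40 and log2 Dicer-cKO ratios of -1.59 and -1.39. let-7b and let-7c are also 1 base apart, and of the let-7c hairpins only let-7c-2 lies beside that of let-7b. Their log2 ratios were -0.66 and -1.40 after LD and -2.22 and -1.39 in Dicer-cKO MG. Over the 4 pairs that differ at 1 base, the median gap between log2 ratios was 0.26 after LD and 0.60 in Dicer-cKO MG, beside 0.70 and 0.62 over all 36 pairs, which share members and are no independent values. miR-98 is in none of those 4 pairs. Its pairs had LD gaps of 0.64 to 1.99, and it rests on 142 unscaled counts after LD and 32 in Dicer-cKO MG.

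Relative to the rest of the panel the family held a slightly smaller share after LD than in wild type and a larger one in Dicer-cKO MG. It made up 11.5% of all miRNA counts in wild type (11.4 to 11.6), 10.9% after LD (10.7 to 11) and 15.6% in Dicer-cKO MG (15.3 to 15.9). The LD share depends on 1 row: miR-720 (MIMAT0003484), which was 3.05% of the counts in wild type, 36.9% after LD and 5.61% in Dicer-cKO MG. This row is counted with the miRNAs because the panel lists it so, but it is now held to be a piece of a transfer RNA, which bears on every total that includes it. Without it the family made up 11.8%, 17.2% and 16.5%. With miR-720 the miRNAs outside the family together stood at 0.602 times wild type after LD, and without it at 0.366 times, beside 0.565 for the family. In Dicer-cKO MG they stood at 0.238 and 0.230 times, beside 0.339.

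On the panel 45.2% of the 104 miRNAs lay below the let-7a Dicer-cKO ratio of 0.333, which is near the 0.339 of the family sum. Among those below the sum were the 4 matched miRNAs whose hairpins lie near a let-7 hairpin. Their names, and those of the marker miRNAs that follow, are not in the table or the reference but were assigned by identifier from knowledge of miRBase and matched by value to an earlier analysis, as was that of miR-720. miR-99a (MIMAT0000131), beside let-7c-1, read 19815 in wild type, 9626 after LD and 2284 in Dicer-cKO MG, ratios of 0.486 (0.470 to 0.502) and 0.115 (0.105 to 0.126). After LD its ratio lay above that of let-7c (0.378), and in Dicer-cKO MG below it (0.381). miR-125a-5p (MIMAT0000135), beside let-7e, read 5639, 1275 and 661, ratios of 0.226 (0.208 to 0.246) and 0.117 (0.0993 to 0.138). The intervals of miR-125a-5p lie below those of let-7e in both conditions.

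miR-100 (MIMAT0000655) and miR-125b-5p (MIMAT0000136) have hairpins near let-7a-2. miR-100 read 5626, 1507 and 524, ratios of 0.268 and 0.0931. miR-125b-5p read 109596, 19063 and 18202, ratios of 0.174 and 0.166. Both were lower than let-7a (0.449 and 0.333) in both conditions.

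Of 7 miRNAs listed as glial, 6 could be matched, among them miR-125b-5p, miR-99a and miR-100, and all 6 were present in every sample. miR-204 (MIMAT0000237) read 285706 in wild type, 51963 after LD and 30438 in Dicer-cKO MG, miR-9 (MIMAT0000142) 75416, 38870 and 18100, and miR-135a (MIMAT0000147) 12833, 11626 and 4865. miR-124 (MIMAT0000134), which marks neurons, went the other way, with 1354 in wild type, 5506 after LD and 12106 in Dicer-cKO MG, ratios of 4.07 (3.80 to 4.36) and 8.94 (8.35 to 9.59). The part of neuronal RNA in the family's values was not tested. The markers of photoreceptors, immune cells, red blood cells and vessels could not be matched and were not analysed here.

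Among 29 other miRNAs with a mean of at least 1000, those nearest to the family sum in the 2 log2 ratios over the 3 samples were MIMAT0000766 (0.511 after LD and 0.394 in Dicer-cKO MG) and MIMAT0000516 (0.589 and 0.270), for which no name was at hand.

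The size of every ratio depends on the housekeeping mRNAs, which did not move together. As deposited, Gapdh stood at 0.475 times wild type after LD, Rpl19 at 1.71, Actb at 1.18 and B2m at 1.04. In Dicer-cKO MG they stood closer, at 0.778, 0.945, 1.05 and 1.29. With Gapdh alone 6 members were above wild type after LD, beside 62.5% of the 104, and with Rpl19 alone 0 were, beside 19.2%. With all 4 it was 1 member, beside 29.8%. The order of the members by LD ratio was the same under all 9 scalings, because a scaling moves every member of a sample by the same factor.

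**Figure D5:**
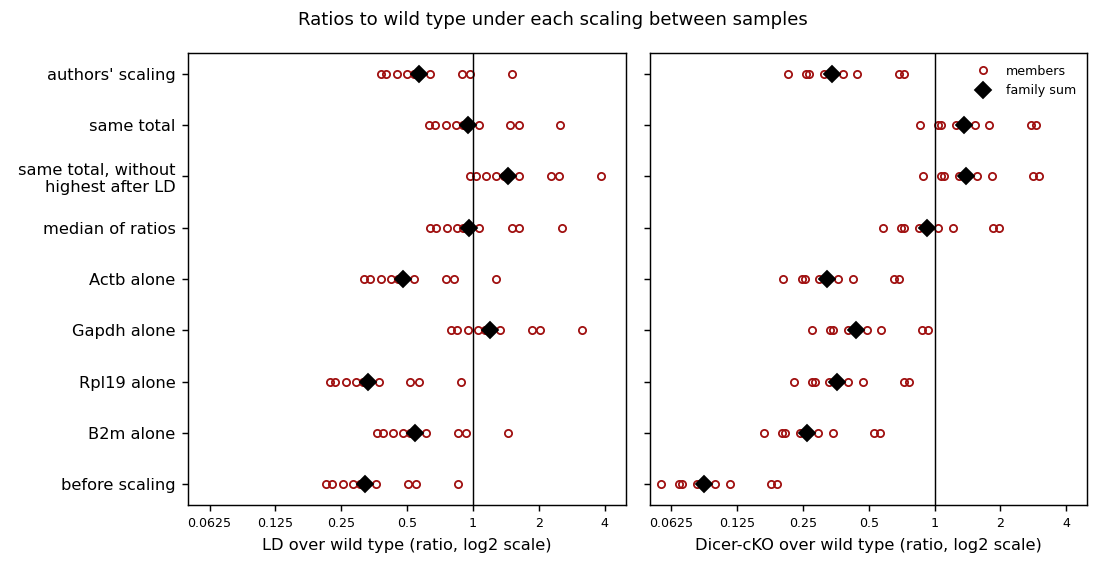
Ratio to wild type (log2 axis) of the 9 members (open circles) and the family sum (diamonds) after LD (left) and in Dicer-cKO MG (right) under 9 scalings between samples. The LD family sum ranges from 0.321 before scaling to 1.45 with samples set to the same total without the highest miRNA after LD, and the Dicer-cKO sum from 0.0886 to 1.40.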

How the data were processed

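Müller glia miRNAs were measured with the NanoString nCounter in 1 pooled sample per condition, from 200 ng of total RNA each. The 626 rows deposited by the authors hold a signal, that is, molecule counts that nSolver 4.0 (per the study's methods) had corrected for background and normalized to 4 housekeeping mRNAs, 8 negative and 6 positive controls. Rows that keep decimals gave the scaling factor of each sample, and values divided by it were taken as unscaled counts, whole to within 0.51 normalized counts for all miRNAs above the lowest value, a check with little power in wild type. Ratios are of deposited values, with exact 95% Clopper-Pearson intervals on the recovered counts. The subtracted background is not known, so intervals cover counting error after subtraction only. A miRNA was compared with the panel where its mean was at least 100, and called past 2-fold. No test was run. Scripts used scipy 1.17.1 for intervals, matplotlib 3.10.9 for plots, and pandas 2.3.3 with numpy 2.4.6 under Python 3.11.15, and were tested on simulated data.

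The members and lists were chosen with earlier results of these data known. The text names the 9 members, miRNAs encoded with them, cell type markers, the 3 nearest other miRNAs (the 2 nearest are printed) and the housekeeping mRNAs. The rule asked for a reference table that pairs names with identifiers and left out names without one. No such table was at hand. As a departure from that rule, 9 other miRNAs are named all the same: their identifiers were written from knowledge of miRBase and kept where the row held the values that an earlier analysis gives for the name, which it had matched to bars plotted by the study. Passenger strands, other miRNAs with the seed, the miR-30 family, miR-99b and most markers were not matched and are not analysed here. Sequences and neighbouring hairpins are from RefSeq (GRCm38.p6). Alternatives were 8 other scalings, a further 20 counts subtracted, a pseudocount of 10, a 1.5-fold threshold, mean filters of 30 and 1000, and leaving out let-7c.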

Additional observations from a re-analysis of the deposited data

How the results depend on the processing

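No paired analysis was possible because only a single pool was measured per condition. The scaling between samples moved the family's values the most, and the cause was not tested. Setting miRNA totals or median ratios equal takes out, by construction, a change that is shared across the panel. The family sum, LD over wild type, was 0.945 with the same miRNA total, 1.45 with that total without the highest miRNA after LD, 0.954 by median of ratios, 0.478 with Actb alone, 1.19 with Gapdh, 0.330 with Rpl19, 0.543 with B2m, 0.321 before scaling and 0.642 without let-7c. In the same order, Dicer-cKO over wild type was 1.36, 1.40, 0.922, 0.323, 0.436, 0.359, 0.262, 0.0886 and 0.322, and LD over Dicer-cKO was 0.695, 1.04, 1.03, 1.48, 2.73, 0.920, 2.07, 3.62 and 1.99. The number of members at least 2-fold lower after LD fell to 0 with the same total, with that total without the highest miRNA, by median of ratios and with Gapdh. It was 5 with Actb, 6 with Rpl19 and 6 before scaling, beside 49.0%, 57.7% and 58.7% of the 104 miRNAs compared. Where a counting interval below 1 was asked for it was 7. In Dicer-cKO MG it was 0 under both totals and median of ratios, 6 with Gapdh (50.0%) and 9 before scaling (80.8%). The number at least 2-fold higher after LD than in Dicer-cKO MG was 0 under both totals, median of ratios and Rpl19 (beside 8.65%, 17.3%, 17.3% and 14.4% of the 104 miRNAs compared), 7 with Gapdh (63.5%), 5 with B2m (51.0%) and 8 before scaling (73.1%). Without the highest miRNA after LD the LD ratios turned to 1.15 for let-7a, 1.28 for let-7d and 1.03 for let-7e, and with Gapdh that of let-7d to 1.05. With the same total, and then without the highest miRNA, the Dicer-cKO ratios turned to 1.33 and 1.37 for let-7a, 1.53 and 1.57 for let-7c, 1.07 and 1.10 for let-7d, 1.04 and 1.07 for let-7e, 1.78 and 1.83 for let-7g, and 1.25 and 1.29 for let-7i. By median of ratios they turned to 1.04 for let-7c and 1.21 for let-7g. In the order same total, without the highest miRNA and median of ratios, let-7f (0.685 as deposited) went to 2.75, 2.82 and 1.86, and miR-98 (0.725) to 2.91, 2.99 and 1.97. LD over Dicer-cKO turned with the same total to 0.563 for let-7a, 0.779 for let-7d, 0.645 for let-7e, 0.833 for let-7g and 0.865 for miR-98, and let-7c went from 0.990 to 0.414. Members within 2-fold of wild type also crossed 1: with the total without the highest miRNA, 8 of 9 members were above wild type after LD, beside 70.2% of the 104. In the order same total, without the highest miRNA, median of ratios and Gapdh, the LD ratio was 1.48, 2.28, 1.5 and 1.87 for let-7g, 1.62, 2.48, 1.63 and 2.03 for let-7i, 1.06, 1.63, 1.07 and 1.33 for let-7b, and 0.896, 1.38, 0.904 and 1.13 for let-7f. Among miRNAs of mean at least 1000, 78.4% were at least 2-fold lower in Dicer-cKO MG. The following were chosen after seeing the data. Without the highest miRNA after LD the family's share of all miRNA counts was 11.8% in wild type, 17.2% after LD and 16.5% in Dicer-cKO MG. With a further 20 counts subtracted 26 of 27 member shares stayed within their intervals, and that of miR-98 in Dicer-cKO MG went from 0.458% to 0.173%. The same setting, planned for the ratios, moved miR-98 to 0.304 for Dicer-cKO over wild type and 4.83 for LD over Dicer-cKO. Leaving let-7c out of the sum moved 24 of 24 shares, as a smaller sum must. The count for LD against Dicer-cKO and the percentages of the 104 under the other scalings, given above, and the rest of the panel without miR-720 were also added then. Depth limits miR-98 the most, with 32 unscaled counts in Dicer-cKO MG.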
